A study of Mus musculus with 6 samples.

Results

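The transcripts described here encode 10 enzymes of pyruvate and lactate conversion and of the citrate cycle: the lactate dehydrogenase subunits *Ldha* and *Ldhb*, the pyruvate dehydrogenase complex subunits *Pdha1*, *Pdhb* and *Dlat*, citrate synthase *Cs*, the malate dehydrogenases *Mdh1* and *Mdh2*, and the isocitrate dehydrogenases *Idh1* and *Idh2*. They were chosen by gene symbol, and each matched 1 row, so they make up 10 of the 25899 genes in the table. The samples were oocytes of aged female (AF) mice, given in the labels as CD1 and 58 weeks old, that were isolated after 5 IU of PMSG, released from IBMX, cultured for 180 minutes to the stage of nuclear envelope breakdown (NEBD) and treated with cycloheximide at 0.1 mg/ml, which holds ribosomes on the mRNA. Lysates of 200 oocytes were separated on sucrose gradients, and the fractions were pooled into a non-polysomal (NP) library, which holds free RNA and RNA on single ribosomes, and a polysomal (P) library, which holds RNA carrying several ribosomes. There were 3 AF NP and 3 AF P libraries, and all of them share this age, stage and treatment. P against NP compares how much of each library a transcript made up, which is not the part of that transcript lying on polysomes. Each library was made from pooled oocytes by whole-transcriptome amplification, so fewer oocytes with a transcript and less of it per oocyte cannot be told apart, and nothing in the labels says that replicates came from separate animals.

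The growing and maturing mouse oocyte is known for its dependence on pyruvate, which it takes up from the surrounding cumulus cells and the medium, and for its poor use of glucose. Lactate dehydrogenase interconverts pyruvate and lactate, the pyruvate dehydrogenase complex turns pyruvate into acetyl-CoA inside mitochondria, and the citrate cycle oxidizes it. Several of these steps have a cytosolic and a mitochondrial enzyme encoded by separate genes, so the levels of paralogs show which form the oocyte's mRNA pool contains.

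Maturing oocytes lengthen the poly(A) tail of transcripts that carry a cytoplasmic polyadenylation element near the 3′ end, and such transcripts are known to be recruited to polysomes. The last 100 bases of the annotated 3′ UTR of each enzyme (GENCODE M21, GRCm38) were therefore searched, on the transcript's strand only, for the elements TTTTAT and TTTTAAT and for the polyadenylation signals AATAAA and ATTAAA. One of the elements was present in 2 of the 10 enzymes, *Cs* and *Idh1*, against 19.3% of the 8331 tested genes with such a window. The windows around them are shown with that of *Ldhb*, the most abundant of the transcripts, whose window held only a polyadenylation signal. Capitals mark the element in *Cs* and *Idh1* and the polyadenylation signal in *Ldhb*.
Cs: ataataaatgtTTTTATtaacaatg
Idh1: taaactgttaaTTTTAATtaaaatgaag
Ldhb: gctcctgatcaAATAAAgttagcaattg
These windows lie in the last exon, in the 3′ UTR, at chr10:128362455-128362479 (plus strand) for *Cs*, chr1:65158637-65158664 (minus strand) for *Idh1* and chr6:142490256-142490283 (minus strand) for *Ldhb*. The *Cs* element begins 14 bases from the annotated end and overlaps no other motif searched. It lies downstream of both polyadenylation signals of that window, which begin 32 and 23 bases from the end. The *Idh1* element begins 38 bases from the end and shares bases with an ATTAAA that begins 33 bases from it. Either polyadenylation signal was found in 8 of the 10 windows, against 80.1% of the tested genes, and those of *Mdh2* and *Idh2* held none of the motifs. AATAAA was present in 64.9% and ATTAAA in 21.3% of the tested genes, counting windows with both under each.

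The values are FPKM (fragments scaled to exon length and to the mapped reads of the library), which allow levels to be compared between genes per length. The low FPKM values come in steps that are worth 1 read, and these gave a depth of 12131031 to 18096677 reads in AF NP replicates 3 and 2, of 1237799 reads in AF NP replicate 1, and of 163822 to 1549317 reads in AF P, so AF P replicate 1 was the shallowest. Of 12 oocyte markers, 11 were above 0 in all 6 libraries, and their summed level was 12559 to 16440 FPKM in AF NP and 5305 to 16508 FPKM in AF P. Of 14 granulosa and cumulus cell markers, 7 were listed at 0 in every library (*Amh*, *Fshr*, *Foxl2*, *Inhba*, *Has2*, *Tnfaip6* and *Ptx3*), while *Cyp19a1* reached 104 FPKM, *Star* 8.80 FPKM and *Kitl* 1.06 FPKM and the other 4 stayed under 1 FPKM. All 6 blood cell markers found in the table were at 0. AF NP replicate 3 stood apart in that 27.6% of the 8404 genes above 1 FPKM in the other AF NP libraries lay under 1 FPKM there, against 4.98% for AF NP replicate 1 and 2.8% for replicate 2. In AF P the same share was 18.9% for replicate 1, 5.01% for replicate 2 and 27.7% for replicate 3. In AF NP replicate 3 the affected enzymes were *Pdha1*, *Dlat* and *Idh1*, 3 of the 8 enzymes above 1 FPKM in the other AF NP libraries, and their ratios are given below with and without it.

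None of the 9 enzymes with a mean above 1 FPKM in either fraction passed the test between P and NP (limma on log2(FPKM + 1), Benjamini-Hochberg adjusted p under 0.1). Among all 10578 genes tested, 1.82% passed, 0.0189% as higher in P and 1.8% as lower in P, and at an unadjusted p under 0.05 there was 1 enzyme, *Mdh2*, and 1669 genes. Over all tested genes the P over NP log2 ratio had a median of -1.03, and the median over the 9 enzymes was -0.97, with 2 ratios above 0 and 7 below. Because rescaling the libraries moved the median of all genes to between -0.43 and -0.22, each ratio is also read relative to that median. As listed, every P value lay below every NP value for 2 of the 9 enzymes, *Ldha* and *Mdh2*, against 23.2% of all tested genes. For *Ldha* the P values are zeros whose limits reach above some NP values, so that order is not established for it. The smallest p that an exact permutation test can give for a single value in 3 against 3 libraries is 0.1.

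The lactate dehydrogenase subunit B gene *Ldhb* (ENSMUSG00000030246.11, chr6:142490249-142507957, minus strand), whose product forms the isoenzyme typical of tissues that consume lactate, had the highest mean of the enzymes in both fractions. In AF NP it stood at 507, 695 and 1301 FPKM (replicates 1, 2 and 3, the order used throughout) and in AF P at 3569, 527 and 2493 FPKM. AF P replicates 1 and 3 were above all AF NP libraries, but AF P replicate 2 lay within the AF NP range, so the fractions overlapped. By rank, *Ldhb* was the 198th, 133rd and 61st most abundant gene of the AF NP libraries and the 4th, 35th and 14th of the AF P libraries. At least 918 recovered reads lay behind each value, so counting error was small beside the spread between replicates.

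The mean of *Ldhb* was 835 ± 415 FPKM (SD, n = 3) in AF NP and 2197 ± 1543 FPKM in AF P. On the log2 scale P exceeded NP by 1.12 (SE 0.62, 95% interval -0.18 to 2.41), a 2.17-fold difference that did not pass the test (limma, Benjamini-Hochberg adjusted p = 0.382). Measured from the all-gene median, *Ldhb* lay 2.15 higher, at the 96.3rd percentile of the tested genes, and it was above that median in 16 of 16 fits, by 1.12 to 3.15. Without AF P replicate 2 the ratio was 1.95 and without AF P replicate 1 it was 0.57. Under the 3 rescalings it was 2.05 to 2.12, with an adjusted p of 0.205 to 0.616. *Ldhb* made up 44.8%, 35.9% and 57.4% of the summed FPKM of the 10 enzymes in the AF NP libraries and 88.4%, 65.5% and 86.1% in the AF P libraries. In this measure every AF P library was above every AF NP library, and the difference was not tested.

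Reads of *Ldhb* may be shared with the processed pseudogene *Gm5514*, which is near-identical over 76.8% of the *Ldhb* transcript, and 16.7% of the 75-base windows of *Ldhb* occur unchanged in transcripts of other genes. *Gm5514* was listed at 84.5, 117 and 389 FPKM in AF NP and at 618, 68.7 and 432 FPKM in AF P. Its ratio to *Ldhb* within a library was 0.130 to 0.173 in 5 libraries and 0.299 in AF NP replicate 3, so the rows moved together. With both rows summed, the log2 ratio was 1.06 (limma, Benjamini-Hochberg adjusted p = 0.403), close to that of *Ldhb* alone.

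*Ldha* (ENSMUSG00000063229.15, chr7:46841475-46855627, plus strand), which encodes the subunit typical of muscle and other glycolytic tissues, was hardly detected. The AF NP libraries held 1.63, 0.111 and 7.44 FPKM, from 6, 6 and 269 recovered reads, and the transcript was listed at 0 in all 3 AF P libraries. AF NP replicate 3 thus held 81.1% of the AF NP signal. For *Ldha*, 3 reads in the AF P libraries correspond to 6.14, 0.881 and 0.649 FPKM, so the level of AF NP replicate 2 would not have been detectable in any of them. The AF NP mean was 3.06 ± 3.87 FPKM (SD, n = 3), and 0.868 FPKM without replicate 3, beside AF P limits that average 2.56 FPKM, so no fold is given. The fitted difference did not pass the test (limma, Benjamini-Hochberg adjusted p = 0.394).

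The summed granulosa and cumulus marker level was highest, at 104 FPKM, in AF NP replicate 3, where *Ldha* was also highest, against 7.85 and 33.3 FPKM in the other AF NP libraries and 16.5, 0.363 and 0.364 FPKM in AF P. *Cyp19a1* (aromatase) supplied most of it in AF NP replicate 3, where *Inha* at 0.112 FPKM was the other marker above 0. The part of such cells in the *Ldha* value was not tested. Near-identical processed pseudogenes, 5 in number and none of them in the table, cover 55.0% of the *Ldha* transcript, but only 5.23% of its 75-base windows occur unchanged in transcripts of other genes.

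Within each library, *Ldhb* exceeded *Ldha* in 6 of 6 cases, by 312-, 6254- and 175-fold in AF NP replicates 1, 2 and 3. The log2 ratio of *Ldha* to *Ldhb*, with 1 FPKM added to each, was -8.05 ± 1.09 (SD, n = 3) in AF NP and -10.71 ± 1.47 in AF P. The difference of -2.66 did not pass the test (two-sided exact permutation test, p = 0.2, adjusted p = 1 over 5 pairs). Since *Ldha* was at 0 in all AF P libraries, its size is set by the pseudocount: it was -4.93 with 0.1 FPKM added (exact p = 0.1, the smallest possible) and -1.70 with 5 FPKM added (exact p = 0.2). Other lactate dehydrogenases were *Ldhd*, which acts on D-lactate, at 24.0 to 54.2 FPKM in AF NP and 5.59 to 36.7 FPKM in AF P, and the germ cell form *Ldhc*, at 0.47 to 25.4 FPKM in AF NP and 0 to 3.33 FPKM in AF P. *Ldhal6b* could not be matched to a row. Neither *Ldhd* nor *Ldhc* passed the test, and the mean of *Ldhd* over the 6 libraries, 27.5 FPKM, was above that of *Ldha*, 1.53 FPKM.

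**Figure D1:**
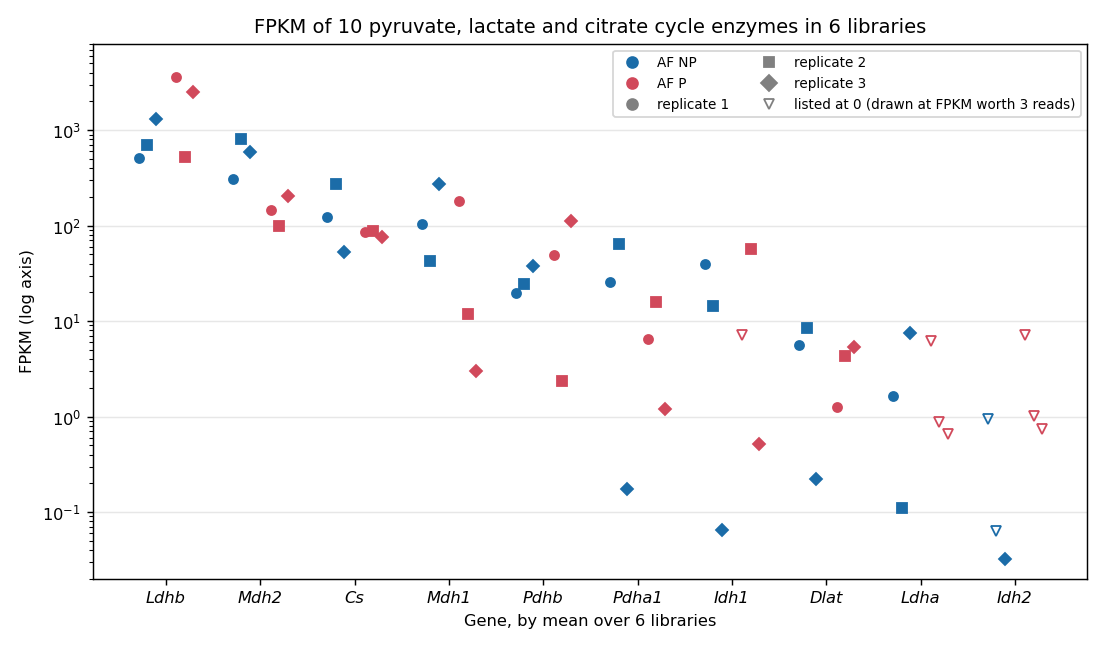
FPKM on a log axis for the 10 enzymes, ordered by their mean over 6 libraries, with AF NP in blue, AF P in red and the replicate number as the symbol. Open triangles stand at the FPKM worth 3 reads for a gene listed at 0. *Ldhb* spans 507 to 3569 FPKM, *Mdh2* is the gene with a mean above 100 FPKM whose fractions do not overlap, and *Idh2* reaches only 0.0319 FPKM.

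The pyruvate dehydrogenase complex, which commits pyruvate to the mitochondrion, was represented at lower levels. *Pdha1* (ENSMUSG00000031299.10, chrX:160122209-160138413, minus strand) encodes the alpha subunit of its first enzyme and stood at 25.9, 64.0 and 0.175 FPKM in AF NP and at 6.47, 15.8 and 1.20 FPKM in AF P. AF NP replicate 3 was the lowest of the 6 libraries, with 8 recovered reads against 121 and 4370 in the other AF NP libraries. Its log2 ratio was -0.97 (SE 1.41, limma, Benjamini-Hochberg adjusted p = 0.726), and without AF NP replicate 3 it was -2.68 with an adjusted p of 0.231. Its sign was not stable: without AF NP replicate 2 the ratio was 0.21, and under quantile normalization 0.12. *Map3k15* overlaps *Pdha1* on the opposite strand, and since the strand setting of the counting is not given in the sources used here, reads of the shared part cannot be assigned.

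*Pdhb* (ENSMUSG00000021748.9, chr14:8165991-8172992, minus strand), the beta subunit of the same enzyme, stood at 19.6, 24.7 and 37.5 FPKM in AF NP and at 49.3, 2.36 and 112 FPKM in AF P. The AF NP libraries lay close together, while AF P replicate 2, from 4 recovered reads, was below and AF P replicate 3 above all of them. AF P replicate 1 was listed above them too. Its 12 recovered reads give a 95% interval of 25.5 to 86.2 FPKM, which includes AF NP replicate 3, so that order is not established. The log2 ratio was -0.03 (SE 1.18, 95% interval -2.47 to 2.41, limma, Benjamini-Hochberg adjusted p = 0.991), and without AF P replicate 2 it was 1.46 (adjusted p = 0.477) and without AF P replicate 3 -1.07 (adjusted p = 0.676). A processed pseudogene that has no row in the table, *Gm6123*, is near-identical over 71.2% of the *Pdhb* transcript.

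*Dlat* (ENSMUSG00000000168.9, chr9:50634633-50659780, minus strand), the acetyltransferase core of the complex, stood at 5.62, 8.44 and 0.219 FPKM in AF NP and at 1.25, 4.30 and 5.42 FPKM in AF P. The fractions overlapped, and the AF P replicate 1 value rests on 1 recovered read. Its log2 ratio was 0.0021 (SE 1.25, limma, Benjamini-Hochberg adjusted p = 0.999), and without AF NP replicate 3 it was -0.90 (adjusted p = 0.587) and without AF NP replicate 2 it was 0.58 (adjusted p = 0.901). The 95% interval, -2.58 to 2.58, spanned differences in both directions.

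The subunits of this complex did not keep a constant proportion to each other. *Pdhb* was 0.756, 0.386 and 215 times *Pdha1* in AF NP replicates 1, 2 and 3 and 7.62, 0.149 and 93.3 times in AF P. It was 3.48, 2.92 and 171 times *Dlat* in AF NP and 39.5, 0.548 and 20.6 times in AF P. AF P replicate 1 rests on 12 recovered reads of *Pdhb*, 4 of *Pdha1* and 1 of *Dlat*. In AF P replicate 2 *Pdhb* rests on 4, so the size of the proportions in these libraries is not established. Replicate 3 of AF NP thus departed from replicates 1 and 2 in both proportions. Neither log2 ratio differed between P and NP beyond this spread: *Pdha1* to *Pdhb* differed by -0.93 (two-sided exact permutation test, p = 0.9) and *Dlat* to *Pdhb* by 0.03 (p = 1), both with an adjusted p of 1 over 5 pairs.

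Among the other genes of the complex and its regulators, 0 of 9 tested passed in limma, against 1.82% of all tested genes, and 2 were at an unadjusted p under 0.05, against 15.8% of all tested genes. Their median log2 ratio was -0.66. The most abundant were *Lipt1*, a lipoyl transferase, at 159 to 280 FPKM in AF NP and 6.84 to 105 FPKM in AF P, *Pdhx*, which anchors the third enzyme of the complex, at 16.2 to 166 and 18.6 to 127 FPKM, and *Pdpr*, a regulator of the complex's phosphatase, at 51.0 to 86.4 and 32.8 to 59.8 FPKM. *Lias*, which makes lipoic acid, and the kinase *Pdk4* were listed at 0 in all 6 libraries. Of the pyruvate and lactate transporters 0 of 6 tested passed in limma and none was at an unadjusted p under 0.05, against the same shares of 1.82% and 15.8%. The monocarboxylate transporter *Slc16a1* stood at 37.5 to 103 FPKM in AF NP and 10.9 to 137 FPKM in AF P, its chaperone *Bsg* at 103 to 170 and 15.9 to 286 FPKM, and the mitochondrial pyruvate carrier *Mpc1* (listed as *Brp44l*) at 7.11 to 18.1 and 4.96 to 5.89 FPKM. *Slc16a8* was at 0 in all 6 libraries.

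*Cs* (ENSMUSG00000005683.8, chr10:128337832-128362479, plus strand), which joins acetyl-CoA to oxaloacetate and opens the citrate cycle, stood at 122, 273 and 52.9 FPKM in AF NP and at 86.3, 88.0 and 75.8 FPKM in AF P. The AF P libraries were within 1.16-fold of each other, the narrowest range of the enzymes above 0 there, and lay inside the AF NP range, which spanned 5.15-fold. The AF P mean was 83.4 ± 6.62 FPKM (SD, n = 3) and the AF NP mean 149 ± 112 FPKM. The log2 ratio was -0.53 (SE 0.83, limma, Benjamini-Hochberg adjusted p = 0.742), and with the libraries rescaled by median of ratios it was 0.46, so its sign depends on the scaling. It was -1.12 without AF NP replicate 3 and 0.048 without AF NP replicate 2.

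The malate dehydrogenases interconvert malate and oxaloacetate, *Mdh2* in the citrate cycle of the mitochondrion and *Mdh1* in the cytosol. *Mdh2* (ENSMUSG00000019179.10, chr5:135778480-135790398, plus strand) stood at 307, 815 and 592 FPKM in AF NP and at 146, 98.5 and 206 FPKM in AF P. Each of the 3 AF P libraries was below each AF NP library, an arrangement seen in 23.2% of all tested genes. The means were 571 ± 255 and 150 ± 53.7 FPKM (SD, n = 3).

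The log2 ratio of *Mdh2* was -1.87 (SE 0.68, 95% interval -3.28 to -0.47), a ratio of P over NP of 0.273. Under median-of-ratios rescaling, quantile normalization and a common FPKM sum the log2 ratio was -0.88, -0.90 and -0.94 (adjusted p 0.714, 0.662 and 0.743). On the deposited values it had the lowest p of the enzymes at 0.0113 before adjustment, but it did not pass the test (limma, Benjamini-Hochberg adjusted p = 0.192). Measured from the all-gene median it was -0.84, at the 23.9th percentile of the tested genes. It was below that median in all 16 fits, by 0.15 or more on the log2 scale, and without any 1 library it stayed between -2.27 and -1.56. No 75-base window of *Mdh2* occurs in transcripts of other genes.

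*Mdh1* (ENSMUSG00000020321.15, chr11:21556787-21572367, minus strand) stood at 104, 43.1 and 276 FPKM in AF NP and at 181, 11.9 and 3.02 FPKM in AF P. AF P replicates 2 and 3 were below all AF NP libraries, but AF P replicate 1, the shallowest library, held 92.4% of the AF P signal from 76 recovered reads. The log2 ratio was -2.36 (SE 1.17, limma, Benjamini-Hochberg adjusted p = 0.330). Without AF P replicate 1 it was -3.91 with an adjusted p of 0.0807, which passed the threshold. In that fit 240 of 10554 tested genes passed, 236 of them lower in P. Without AF P replicate 3 the ratio was -1.16 with an adjusted p of 0.627. Under the 3 rescalings it was between -1.47 and -1.12. Measured from the all-gene median *Mdh1* was at -1.33, at percentile 14.3 of the tested genes, and it was below that median in all 16 fits. The gene overlaps *Wdpcp* on the opposite strand by 133 bases.

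*Mdh2* exceeded *Mdh1* in 5 of 6 libraries, by 2.96-, 18.9- and 2.14-fold in AF NP and 8.25- and 68.2-fold in AF P replicates 2 and 3. AF P replicate 1 was the exception, with *Mdh2* at 0.808 times *Mdh1*. The log2 ratio of *Mdh1* to *Mdh2* was -2.29 ± 1.68 (SD, n = 3) in AF NP and -2.77 ± 3.00 in AF P, and the difference of -0.49 lay within this spread (two-sided exact permutation test, p = 0.9, adjusted p = 1 over 5 pairs).

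Isocitrate dehydrogenases of this family make 2-oxoglutarate and NADPH, *Idh1* in the cytosol and peroxisomes and *Idh2* in mitochondria. *Idh1* (ENSMUSG00000025950.16, chr1:65158616-65186479, minus strand) stood at 39.6, 14.4 and 0.0652 FPKM in AF NP and at 0, 56.4 and 0.510 FPKM in AF P. AF NP replicate 3 and AF P replicate 3 rest on 2 recovered reads each, and AF P replicate 2 held 99.1% of the AF P signal. For *Idh1* in AF P replicate 1, 3 reads correspond to 7.24 FPKM, so a level like that of AF P replicate 3 was not detectable at this depth. The log2 ratio was -0.98 (SE 1.57, limma, Benjamini-Hochberg adjusted p = 0.751), and without AF NP replicate 3 it was -2.50 (adjusted p = 0.401). The sign turned without AF NP replicate 1 (0.13), without AF P replicate 1 (0.092) and under quantile normalization (0.17).

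*Idh2* (ENSMUSG00000030541.16, chr7:80094846-80115392, minus strand) was listed at 0 in 5 libraries and at 0.0319 FPKM, 1 recovered read, in AF NP replicate 3. The limit of 3 reads was 0.936, 0.0641 and 0.0956 FPKM in the AF NP libraries and 7.08, 1.02 and 0.748 FPKM in the AF P libraries, so each listed value was under it. *Idh2* was below the filter and was not tested. With so few *Idh2* reads, the log2 ratio of *Idh1* to *Idh2* with 1 FPKM added is that of *Idh1* alone, and its test says nothing about *Idh2*. The NAD-dependent isocitrate dehydrogenase of the citrate cycle is a separate enzyme and is counted with the other citrate cycle genes below. Of its subunit genes, *Idh3g* stood at 517, 607 and 973 FPKM in AF NP and at 33.9, 89.5 and 448 FPKM in AF P. *Idh3a* and *Idh3b* were each above 0 in 5 libraries, and none of these genes passed the test.

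**Figure D2:**
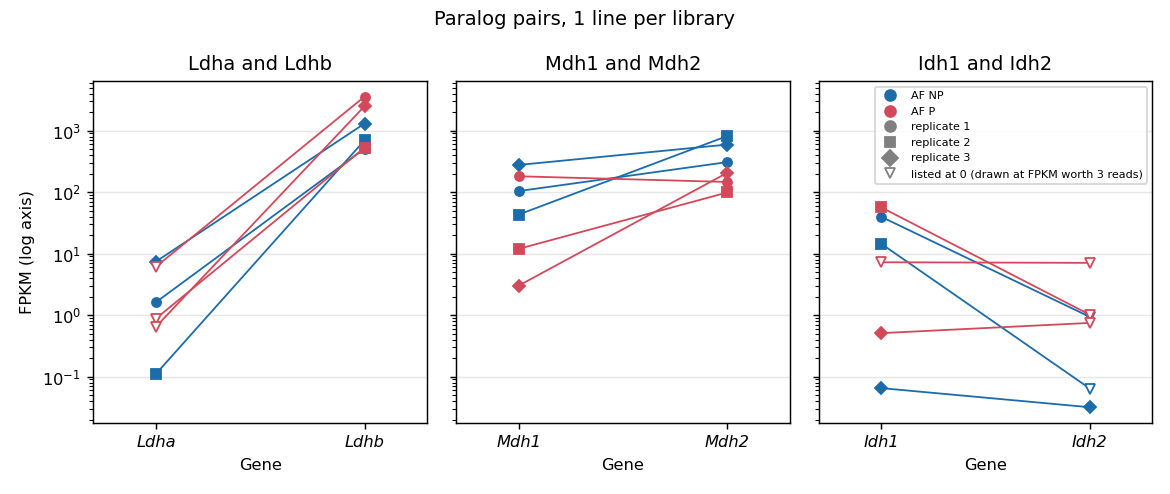
FPKM on a log axis for the cytosolic and mitochondrial or alternative forms of 3 enzymes, with 1 line per library, AF NP in blue and AF P in red. Open triangles mark genes listed at 0, drawn at the FPKM worth 3 reads. *Ldhb* is above *Ldha* in 6 of 6 libraries and *Mdh2* above *Mdh1* in 5 of 6, while *Idh2* lies at or under the limit of 3 reads throughout.

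By mean level the order in AF NP was *Ldhb*, *Mdh2*, *Cs*, *Mdh1*, *Pdha1*, *Pdhb*, *Idh1*, *Dlat*, *Ldha* and *Idh2*. *Mdh2* and *Cs* were neighbours whose AF NP ranges did not overlap. The listed ranges of *Ldha* and *Idh2* did not overlap either, but the *Idh2* limit of 0.936 FPKM in AF NP replicate 1 is above the 0.111 FPKM of *Ldha* in replicate 2, so their separation is not established. All other neighbours in AF NP overlapped. In AF P the order was *Ldhb*, *Mdh2*, *Cs*, *Mdh1*, *Pdhb*, *Idh1*, *Pdha1* and *Dlat*, with *Ldha* and *Idh2* at 0. There the ranges of *Ldhb* and *Mdh2*, of *Mdh2* and *Cs*, and of *Dlat* and *Ldha* did not overlap, although *Ldha* was at 0 with the limits given above. The first 4 places were held by the same genes in both fractions, and the middle of the order was not resolved by these replicates.

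**Figure D3:**
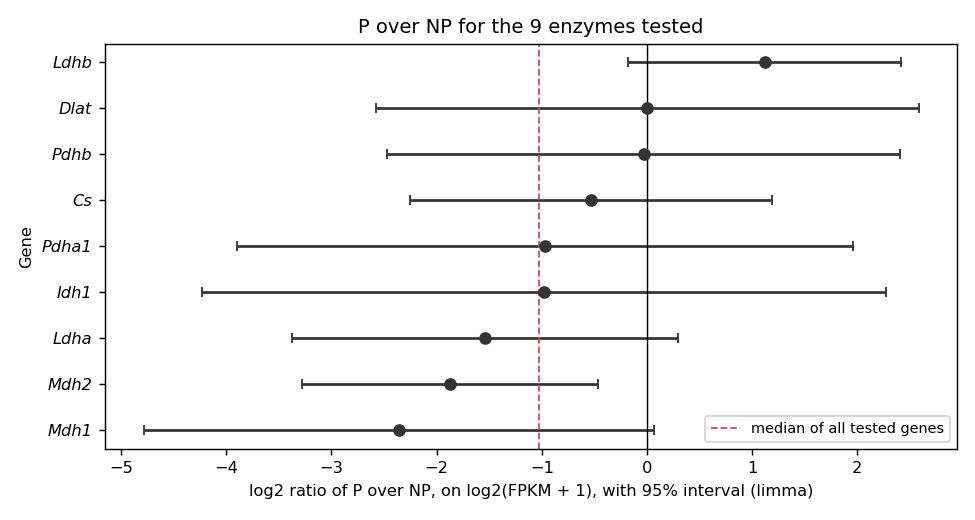
Log2 ratio of P over NP on the log2(FPKM + 1) scale for the 9 enzymes tested, with the 95% interval from limma. The dashed line is the median of all tested genes, -1.03, and the solid line is 0. *Ldhb* lies at 1.12 with an interval that includes 0, and *Mdh2* at -1.87 is the enzyme whose interval does not include 0. The place of *Ldha*, at 0 in all AF P libraries, is set by the pseudocount.

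The other citrate cycle enzymes were measured in the same libraries, and 0 of 16 tested passed in limma, against 1.82% of all tested genes, with 2 at an unadjusted p under 0.05, against 15.8% of all tested genes. Their median log2 ratio was -1.26, with 3 ratios above 0 and 13 below, against -1.03 over all tested genes.

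Of 12 tested genes of the malate-aspartate shuttle, the malic enzymes and citrate use, 1 fell in P and none rose, against 1.8% and 0.0189% of all tested genes. It was *Slc25a1*, the carrier that exports citrate from the mitochondrion, at 467, 395 and 410 FPKM in AF NP and at 33.7, 42.7 and 0.890 FPKM in AF P, with every P library below every NP library, as in 23.2% of all tested genes. Its log2 ratio was -4.90 (SE 1.02, limma, Benjamini-Hochberg adjusted p = 0.0269). Under rescaling by median of ratios, quantiles or a common FPKM sum the ratio stayed below 0, at -4.03, -3.56 and -4.02, and the adjusted p was 0.432, 0.450 and 0.205, so the call was lost. Leaving out any 1 AF NP library also ended it, with an adjusted p of up to 0.341 at ratios of -4.95 to -4.83. Without AF P replicate 3, the lowest library, the ratio was -3.45, and without AF P replicate 2 it was -5.71. The other 2 most abundant genes of this list were the malic enzyme *Me1*, at 56.2 to 113 FPKM in AF NP and 11.1 to 109 FPKM in AF P, and the aspartate aminotransferase *Got2*, at 11.8 to 77.8 and 12.9 to 165 FPKM, and neither passed. *Me3* was at 0 in all 6 libraries.

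Of 14 tested glycolysis genes, 2 fell in P and none rose, against 1.8% and 0.0189% of all tested genes, and 7 of the 23 genes in that list were at 0 in all 6 libraries. *Aldoa*, an aldolase, stood at 1023, 1575 and 1624 FPKM in AF NP and at 131, 113 and 169 FPKM in AF P, a log2 ratio of -3.33 (SE 0.60, limma, Benjamini-Hochberg adjusted p = 0.0126). *Gpi1*, glucose-6-phosphate isomerase, stood at 237, 243 and 344 FPKM in AF NP and at 29.9, 20.6 and 67.9 FPKM in AF P, a log2 ratio of -2.92 (SE 0.81, adjusted p = 0.0922). For both genes every AF P library was below every AF NP library, as in 23.2% of all tested genes. Both calls were lost under all 3 rescalings, with an adjusted p of 0.137 to 0.483 for *Aldoa* and 0.615 to 0.625 for *Gpi1*, while the log2 ratios were -2.40 to -2.34 and -2.01 to -1.94. Without any 1 AF NP library neither passed, with an adjusted p of up to 0.203 for *Aldoa*, at ratios of -3.55 to -3.22, and of up to 0.395 for *Gpi1*, at ratios of -3.02 to -2.75, and for *Gpi1* this also held without AF P replicate 1 (adjusted p = 0.125) or 2 (0.166). Of the 75-base windows of *Gpi1*, 14.8% occur unchanged in transcripts of other genes.

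**Figure D4:**
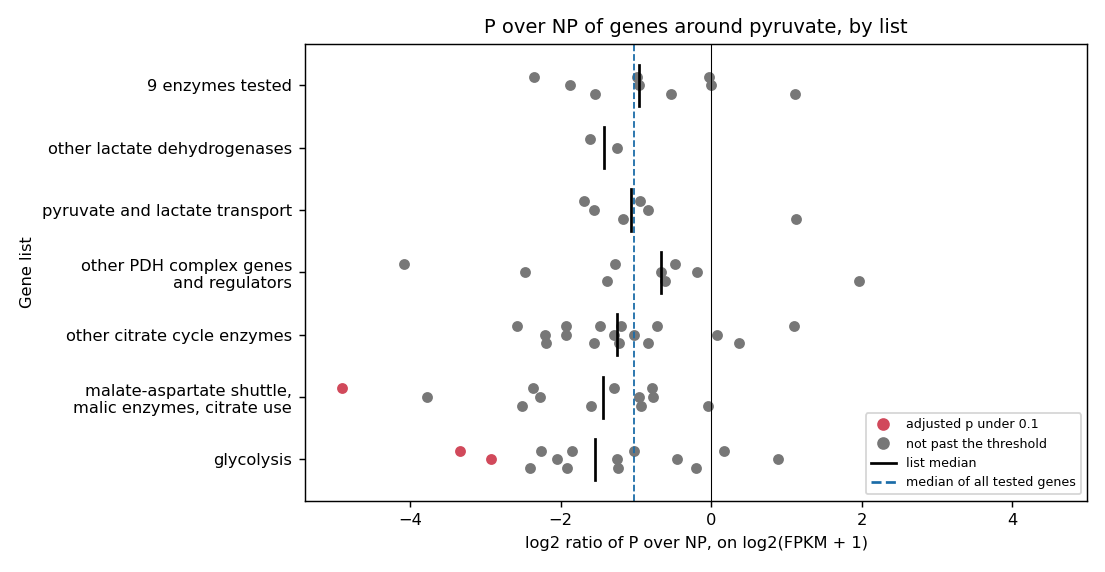
Log2 ratio of P over NP of each tested gene by list, with the list median as a black bar and the median of all tested genes, -1.03, as the dashed line. The 3 red points are *Slc25a1*, *Aldoa* and *Gpi1*, which had a limma adjusted p under 0.1 on the values as deposited. The medians of the lists lie between -1.55 for glycolysis and -0.66 for the other pyruvate dehydrogenase complex genes.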

How the data were processed

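Per the submitters' processing notes, Trim Galore 0.4.1, FastQC 0.11.5 and HISAT2 2.0.5 were used with the GRCm38 build, and the authors deposited Seqmonk values as FPKM, which scale reads to exon length and to mapped reads. The sources used here do not give the strand setting, the annotation release or any filter on reads. The authors' mean of each fraction was not used.

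Of 25965 rows, 66 duplicates were dropped, keeping the row with the highest mean. Depth was recovered as the step that makes FPKM times exon length whole, and 83.9% to 89.5% of low values per library were whole within 0.02 reads. Reads of a gene use the shortest exon length that makes all its values whole within 0.005 reads, and are the fewest that could underlie them; for *Idh2*, with 1 value above 0, the GENCODE M21 exon length was used. What 1 step counts is not settled, and limits of 3 reads cover counting error only. P and NP were compared over 6 libraries with limma 3.58.1 in R 4.3.3, two-sided, with a mean-variance trend, a pseudocount of 1, a mean FPKM above 1 in either fraction and Benjamini-Hochberg adjustment (threshold 0.1). Fold changes of low genes are understated on this scale. The code was tested on simulated data. Near-identical transcripts (at least 95% over 100 bases) were found with BLAST 2.17.0 in GENCODE M21. Ratios within a library were compared by exact permutation. The enzymes and lists were chosen with earlier results of these data known. All 10 enzymes and rows near-identical to them are named. Other genes are named where they passed the test. In lists of at most 13 genes, the 3 highest and those listed at 0 throughout are named too. The *Idh3* genes are named in addition. Alternatives changed the pseudocount, the filter, the scaling, the trend, the threshold (0.05) or the replicate block, or left out each library, and 1 was added after seeing the data, *Ldhb* summed with *Gm5514*.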

Additional observations from a re-analysis of the deposited data

How the results depend on the processing

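Over 17 alternatives, 122 of 142 ratios of the 9 enzymes kept their direction and their side of the threshold, 19 changed sign and 1 passed the threshold. The changed filters, the absent trend and the replicate block repeat the main ratio, so no direction could change there. The threshold of 0.05 is no refit and could change neither. The absent trend and the replicate block also repeat the main ratio in the counts over 16 fits. *Ldhb* stayed above 0, and *Mdh1* and *Mdh2* stayed below 0, in every alternative in which they were fitted. *Ldha* stayed below 0 too. Its AF P values are all 0 and its AF NP values above 0, which fixes that sign wherever the values are not quantile-normalized. Under median-of-ratios rescaling, quantile normalization and a common FPKM sum, *Cs* was 0.46, 0.44 and 0.39 and *Pdhb* 0.89, 0.71 and 0.81, and under quantile normalization *Pdha1* was 0.12 and *Idh1* 0.17. With a pseudocount of 5, *Pdhb* was 0.20, *Dlat* -0.10 and the *Dlat* to *Pdhb* difference -0.30. Leaving out 1 library at a time gave -2.68 to 0.21 for *Pdha1*, -1.07 to 1.46 for *Pdhb*, -0.90 to 0.58 for *Dlat*, -1.12 to 0.048 for *Cs*, -2.83 to 0.13 for *Idh1*, -3.91 to -1.16 for *Mdh1*, -2.27 to -1.56 for *Mdh2*, -2.23 to -1.54 for *Ldha* and 0.57 to 1.95 for *Ldhb*. The *Ldha* range lacks the fit without AF NP replicate 3, where its mean of 0.868 FPKM fell under the filter and it was not tested. The size of the *Ldha* ratio is set by the pseudocount: it was -3.81 with 0.1 FPKM added and -0.58 with 5 FPKM added. The P minus NP differences of the log2 ratios then ranged from -2.03 to 0.97 for *Mdh1* to *Mdh2*, -2.82 to 0.15 for *Idh1* to *Idh2* (set by *Idh1* alone), -3.49 to -2.11 for *Ldha* to *Ldhb*, -3.11 to 0.89 for *Pdha1* to *Pdhb* and -1.62 to 0.95 for *Dlat* to *Pdhb*. The number of enzymes past the threshold was 0 to 1, the 1 being *Mdh1* without AF P replicate 1; where an arm is left with 2 libraries, fewer samples enter the fit. The cause of the other changes was not tested.

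The number of genes called among all tested was 192, against 69 and 156 with a pseudocount of 0.1 and 5, 210 with a mean FPKM above 5, 1 without a filter on low values, 3 with median-of-ratios rescaling, 4 with quantile normalization, 7 with a common FPKM sum, 15 without the trend and 65 at a threshold of 0.05. Without 1 library it was 4, 12 and 1 for AF NP replicates 1, 2 and 3 and 240, 156 and 331 for AF P replicates 1, 2 and 3. The share of calls lower in P was 190 of 192, against 1 of 3, 2 of 4 and 5 of 7 under the 3 rescalings. With the replicate block 668 genes were called; no enzyme passed, with a limma adjusted p of 0.264 for *Ldhb*, 0.129 for *Mdh2* and 0.210 for *Mdh1*, and the block left the ratio differences as they were, for example -2.66 for *Ldha* to *Ldhb* (exact sign-flip p = 0.5, smallest possible 0.25). Deviations correlated at 0.063, 0.099 and 0.116 between libraries with the same number and at -0.089 to 0.021 between others. Every library thus correlated best with its own number. Each lysate gave an NP and a P pool, so the design pairs the libraries. No source used here says that equal numbers mark a pair, and the main fit and the exact permutation tests leave pairing out. *Aldoa* and *Slc25a1* kept their calls in 8 of 16 alternatives and *Gpi1* in 4 of 16. Depth limits most what can be said of AF P replicate 1, where 3 reads at 2000 bases are worth 9.16 FPKM.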
